A study of Arabidopsis thaliana with 20 samples.

Results

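In Arabidopsis root tips, 125 of 22746 probe sets read lower in the ribosome-bound RNA of each of 4 tagged lines than in total RNA, after hypoxia and in air. A probe set is a group of short array features that reads 1 transcript or several similar ones. Members were chosen from the measured values themselves: the group mean of total RNA had to exceed the highest of the pSCR, pSHR, pWOL and p35S group means by at least 0.8 log2 units (called the margin here, total RNA minus line, so that a positive margin means lower in the line) in hypoxia and also in control. The margin is therefore a description and carries no test. XTH21, EXPA7 and EXPA18 passed the same threshold but were left out by name, and PDF2.5, also left out by name, did not pass it, with margins of 0.64 in hypoxia and 1.52 in control. The 128 probe sets past the threshold came from 260 past it in hypoxia and 384 past it in control.

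The seedlings were 7 days old, of the Col-0 accession, and every group carried a FLAG-tagged ribosomal protein L18B transgene. Before the last 1 cm of the root was cut off, plates were kept for 2 h under argon, here called hypoxia, or stayed in air as the control. The labels place the pSCR promoter in the endodermis and pSHR and pWOL in vascular tissue, whereas p35S is broadly active. Polysomal RNA was immunopurified from each line through the tag, and total RNA came from lysates of the p35S line, so each of the 5 RNA populations has 2 arrays in hypoxia and 2 in control, 20 in all. By design the promoter decides which cells make the tag and so contribute to a polysomal sample. No untagged plants are among the groups, so RNA recovered without the tag was not measured. Nothing in the labels says that replicates were separate cultures, so the p-values refer to array-to-array spread that may be technical.

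Immunopurification of tagged ribosomes recovers the messenger RNAs that ribosomes are holding in the cells where the tag is made. Total RNA of a lysate also holds messengers that are free or bound in other particles, and messengers of cells with little tag. Here total RNA came from the p35S line alone, so for pSCR, pSHR and pWOL the margin also compares different lines. A transcript can read low in such polysomal RNA for any of these reasons. In bulk samples fewer cells of a type and less RNA per cell cannot be told apart. A messenger with a short coding region has room for fewer ribosomes than one with a long coding region.

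The array medians over all probe sets lay between 6.41 and 6.55 log2 units, and replicate arrays correlated at 0.965 to 0.984 across probe sets. One array stood apart in a control: the 25S ribosomal RNA probe set read 10.18 in pSCR hypoxia replicate 2 and 12.69 to 14.34 in the other arrays. For the GAPDH control, the 3′ probe set exceeded the 5′ one, a sign of shortened products after amplification, by 4.37 ± 0.51 log2 units in pSCR, 4.54 ± 0.15 in pSHR, 4.58 ± 0.33 in pWOL, 3.68 ± 0.40 in p35S and 4.55 ± 0.29 in total RNA (SD, n = 4 each). Its part in the results was not tested. Few marker genes of the labelled tissues have a named probe set. GSO1, a receptor kinase needed for the endodermal barrier, averaged 9.73 log2 units in pSCR and 8.47 in p35S in hypoxia, and 11.10 in pSCR and 8.78 in p35S in control, though pSHR (9.65) and pWOL (9.62) were nearly as high as pSCR in hypoxia. The 3 measured stele genes gave no common order between the vascular lines and p35S. In hypoxia PHV averaged 9.36 in pSHR and 9.09 in pWOL, against 9.04 in p35S, LHW 8.28 and 7.69, against 8.25, and OPS 5.79 and 5.21, against 5.95. In control PHV averaged 9.80 in pSHR and 9.39 in pWOL, against 10.16 in p35S, LHW 7.97 and 7.37, against 8.62, and OPS 5.76 and 5.47, against 5.75. Of the 3 measured cortex genes, JKD averaged 9.48 and AT1G09750 10.57 in control pWOL, against 6.89 and 7.18 in control p35S. Both were also above p35S in control pSCR (8.80 and 9.42) and control pSHR (8.44 and 9.48). The third, AT1G62500, was dim and did not differ in this way, with 4.97 in control pWOL and 5.03 in control p35S.

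Over the members, the median level was above that of all probe sets in every array, and lower in every polysomal array than in total RNA. In hypoxia the polysomal arrays had member medians of 7.76 and 8.18 log2 units in pSCR, 7.66 and 7.32 in pSHR, 7.23 and 7.55 in pWOL, and 7.89 and 8.22 in p35S, against 9.32 and 9.27 in total RNA. The lowest medians were those of pWOL and pSHR in hypoxia, and no polysomal median came near total RNA, as the rule requires. In control the polysomal medians were 7.54 and 7.87 in pSCR, 8.14 and 8.01 in pSHR, 8.08 and 7.92 in pWOL, and 7.87 and 7.91 in p35S, against 9.78 and 9.56 in total RNA. Averaged over the treatments, the median member had 9.41 log2 units in total RNA, against 6.47 for all probe sets, and 100 of the 125 members fell in the brightest 25% of probe sets by that level.

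**Figure D1:**
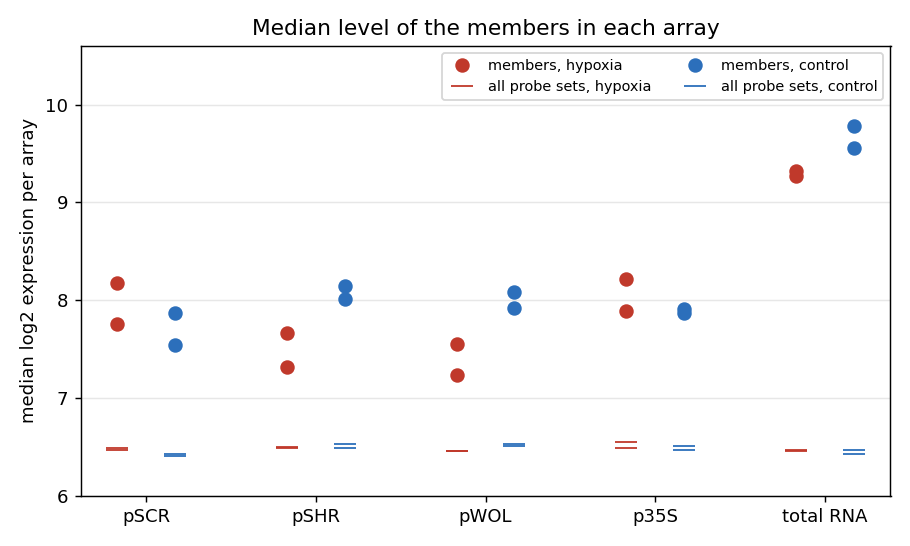
Median log2 expression of the 125 members (points) and of all probe sets (dashes) in each array, by RNA population, with hypoxia in red and control in blue. All polysomal arrays lie at or below 8.22, the 4 total RNA arrays between 9.27 and 9.78, while the medians of all probe sets stay between 6.41 and 6.55.

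The median margin of the members was 1.07 log2 units in hypoxia (0.81 to 2.24) and 1.18 in control (0.80 to 3.90), against −0.21 and −0.23 over all probe sets. Taking the smaller of a probe set's 2 margins, here called the lower margin, the members had a median of 0.99, whereas 11.2% of all probe sets had a value above 0. The lower margin reached 1 in 60 members, 1.5 in 11 and 1.7 in 6. The margin was wider in hypoxia in 48 members and wider in control in 77. Every polysomal array lay below every total RNA array of its treatment in 122 members in hypoxia, 117 in control and 115 in both. The rule uses the means of these same arrays and so favours such separation, and the share over all probe sets is not given. Nothing is read from these counts. Just inside the threshold were AT4G25900, AT1G67920 and AT1G16000, with lower margins of 0.801, 0.811 and 0.827. UPB1, AT3G60540 and AT2G43640 lay just outside it with 0.798, 0.794 and 0.789.

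**Figure D2:**
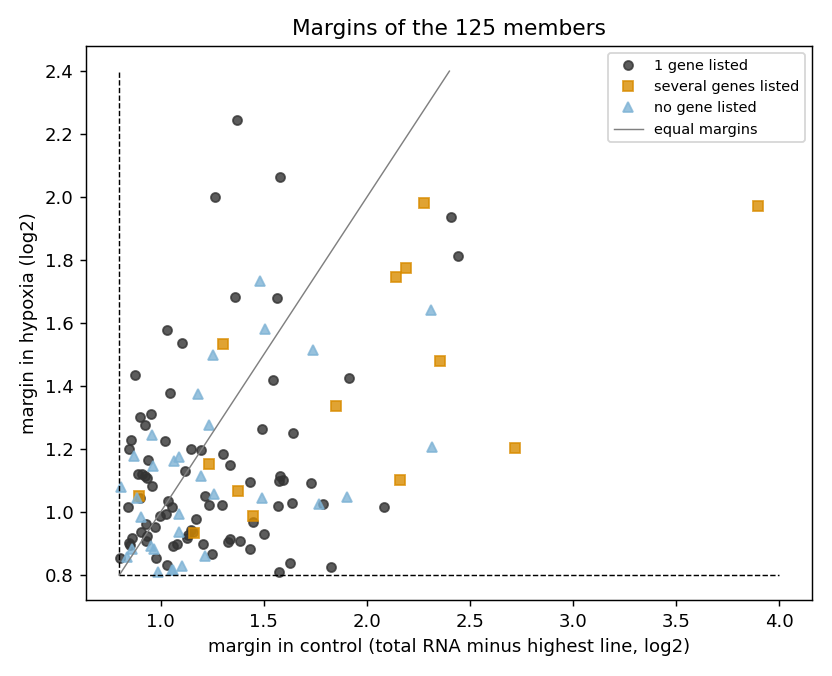
Margin between the highest tagged line and total RNA (total minus line, log2 units) in hypoxia (vertical axis) and in control (horizontal axis) for the 125 members, with 79 probe sets that list 1 gene, 14 that list several and 32 that list none. Dashed lines mark the threshold of 0.8; the farthest point to the right has a control margin of 3.90.

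Which line came closest to total RNA differed between the treatments. In hypoxia p35S was the highest line in 64 members and pSCR in 49, against 7 for pWOL and 5 for pSHR. In control pSHR was the highest line in 40 members, pWOL in 35, p35S in 32 and pSCR in 18. Over all probe sets in hypoxia, p35S was the highest line in 33.0%, pWOL in 24.6%, pSCR in 24.0% and pSHR in 18.4%. In control these shares were 28.8% for p35S, 26.8% for pWOL, 25.6% for pSCR and 18.9% for pSHR. The median difference of total RNA minus line was widest for pWOL in hypoxia (1.80 log2 units) and narrowest for p35S in hypoxia (1.23). These values rest on the group means of 2 arrays that the rule used. In hypoxia, replicate 2 had the higher member median in pSCR (8.18 against 7.76) and in p35S (8.22 against 7.89). That pSCR array is the one with the low 25S reading. Differences in these counts between lines and treatments were not tested.

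The 79 members with 1 annotated gene read 79 different genes, of which 77 matched the gene table, all of them protein coding. They were spread over the chromosomes, with 11 on chromosome 1, 14 on chromosome 2, 14 on chromosome 3, 19 on chromosome 4 and 19 on chromosome 5. No pair lay side by side among protein-coding genes; the nearest were AT3G22540 and AT3G22570, 4 steps apart, and AT3G62400 and AT3G62450, 5 steps apart. Of the 993 measured genes that make no protein, none was a member, against 125 of all 22746 probe sets. Their median lower margin was −0.13, against −0.37 over all probe sets. Their level in total RNA was not compared with that of the members, so nothing is read from this count.

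The members' genes were short. The gene table gives the span of a gene from start to end, introns included, and the rule did not use it. The 77 matched members had a median span of 1410 bases (quartiles 940 and 1777), against 2117 bases (quartiles 1406 and 3068) for all 13436 matched probe sets. Among the members 68 lay below the median of all, 20 (26.0%) were under 1000 bases and 5 (6.49%) were over 2500 bases. Of all matched probe sets, 13.2% were under 1000 bases and 37.9% over 2500. The shortest member gene was AT1G67920 with 597 bases and the longest AT2G03980 with 3683.

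The matched probe sets were also ordered by span into 10 equal classes, and members were more frequent in the shorter ones. The shortest class held 18 members (1.34% of its probe sets), the fifth 9 (0.668%), the sixth 4 (0.298%) and the longest 0. The median lower margin of all probe sets was smaller at each step towards longer genes, −0.14 in the shortest class and −0.68 in the longest. This depended on level. In the dimmest 25% of probe sets it was −0.15 below the median span and −0.19 at or above it. In the brightest 25% these were −0.22 and −0.63. The median total RNA level was 4.73 log2 units in the shortest class and 6.56 in the longest, so level differs between these classes. The members were bright. Among the brightest 25% of probe sets, 56 of 1102 (5.08%) with a span below the median of all were members, against 6 of 1668 (0.36%) at or above it. In the next 25%, the members numbered 12 of 1319 (0.91%) below the median span and 3 of 1940 (0.155%) at or above it. In the opposite direction, 24 probe sets read at least 0.8 log2 units higher in every line than in total RNA in both treatments. The 13 of them with a known span had a median of 3881 bases, none under 1000. Transcript length was not available here, all these arrays share the same amplification, and the part of length in the margin was not tested.

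**Figure D3:**
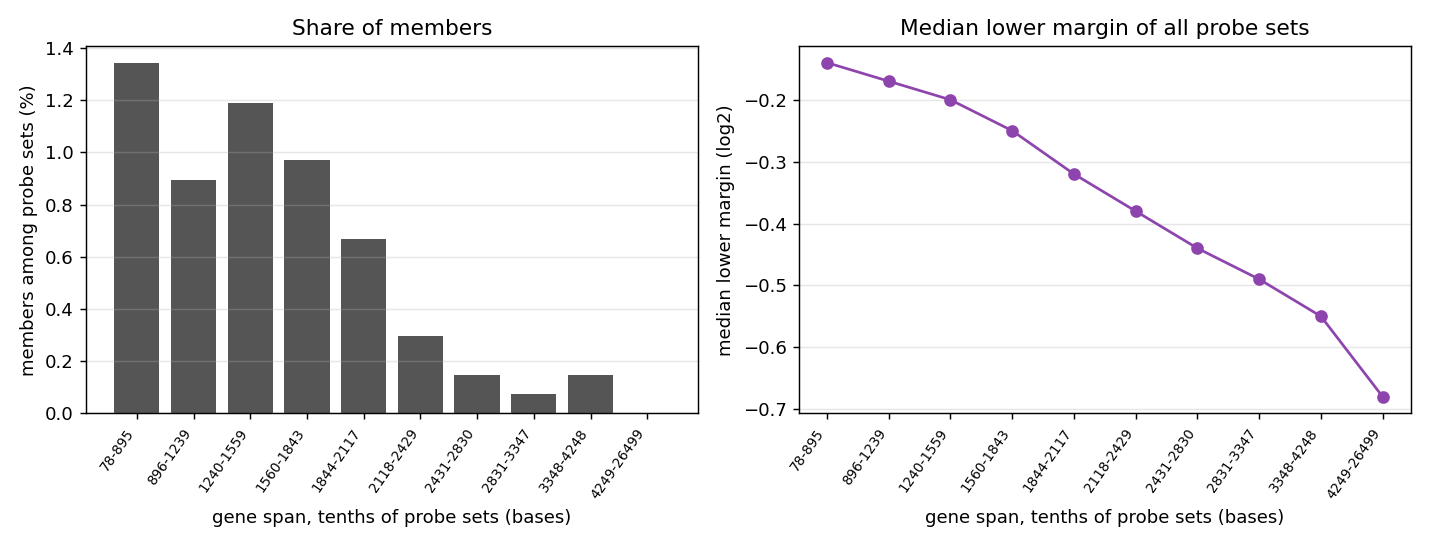
Left, the percentage of probe sets that are members in each of 10 equal classes of gene span (bases); right, the median lower margin (log2) of all probe sets in the same classes, from shortest to longest. Members make up 1.34% of the shortest class and 0 of the longest, and the median lower margin declines at every step, from −0.14 in the shortest class to −0.68 in the longest.

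The widest lower margin among single-gene members belonged to AT1G05575, a gene of 710 bases known here by its locus only. Its 8 polysomal hypoxia arrays ran from 6.76 (median 7.55) to 9.40 log2 units, against 10.93 and 10.01 in total RNA. In control the polysomal arrays ran from 4.42 (median 5.17) to 6.18, against 9.09 and 7.85 in total RNA. Its margins were 1.94 in hypoxia and 2.41 in control. The gap between RNA pools in both treatments is what the rule requires. Both pools were higher in hypoxia, though the rise in total RNA was not called (2.00 ± 0.51 log2 units, limma, adjusted p = 0.0555).

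AT2G47540 came next, with margins of 1.81 in hypoxia and 2.44 in control. Its polysomal arrays ran from 6.41 (median 6.73) to 7.07 in hypoxia and from 7.28 (median 7.67) to 8.24 in control, against 8.84 in both hypoxia arrays and 10.13 and 10.46 in the control arrays of total RNA. Here both pools were lower in hypoxia and no arrays of the treatments overlapped within a pool.

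AT5G66815 had margins of 2.06 in hypoxia and 1.58 in control. Its polysomal arrays ran from 5.40 (median 6.08) to 7.21 in hypoxia and from 4.13 (median 5.28) to 7.56 in control, against 8.75 and 9.09 in hypoxia and 7.57 and 8.32 in control in total RNA. The high control array was pWOL replicate 1, which almost reached the lower total RNA array. AT5G03345 had polysomal arrays from 8.19 (median 8.58) to 10.37 in hypoxia and from 8.31 (median 9.11) to 9.75 in control. Its total RNA arrays read 11.08 and 11.07 in hypoxia and 10.92 and 11.27 in control, an even level. The polysomal value of 10.37 was p35S replicate 2, whose partner read 8.42.

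DI21, a drought-induced gene, had polysomal arrays from 8.25 (median 9.15) to 10.19 in hypoxia and from 8.18 (median 9.46) to 10.26 in control. Its total RNA values were 11.26 and 11.28 in hypoxia and 11.08 and 11.33 in control, all above the polysomal ones. AT3G22540 had the widest hypoxia margin of all members, 2.24, with polysomal arrays from 7.27 (median 7.58) to 8.53 against 10.09 and 10.21 in total RNA. The remaining 6 of the 12 single-gene members with the widest lower margin were AT5G57785, AT3G22570, AT5G15180, AT5G15320, AT2G20030 and AT5G62150. Their margins lay between 1.20 and 2.00 in hypoxia and between 1.20 and 1.91 in control.

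**Figure D4:**
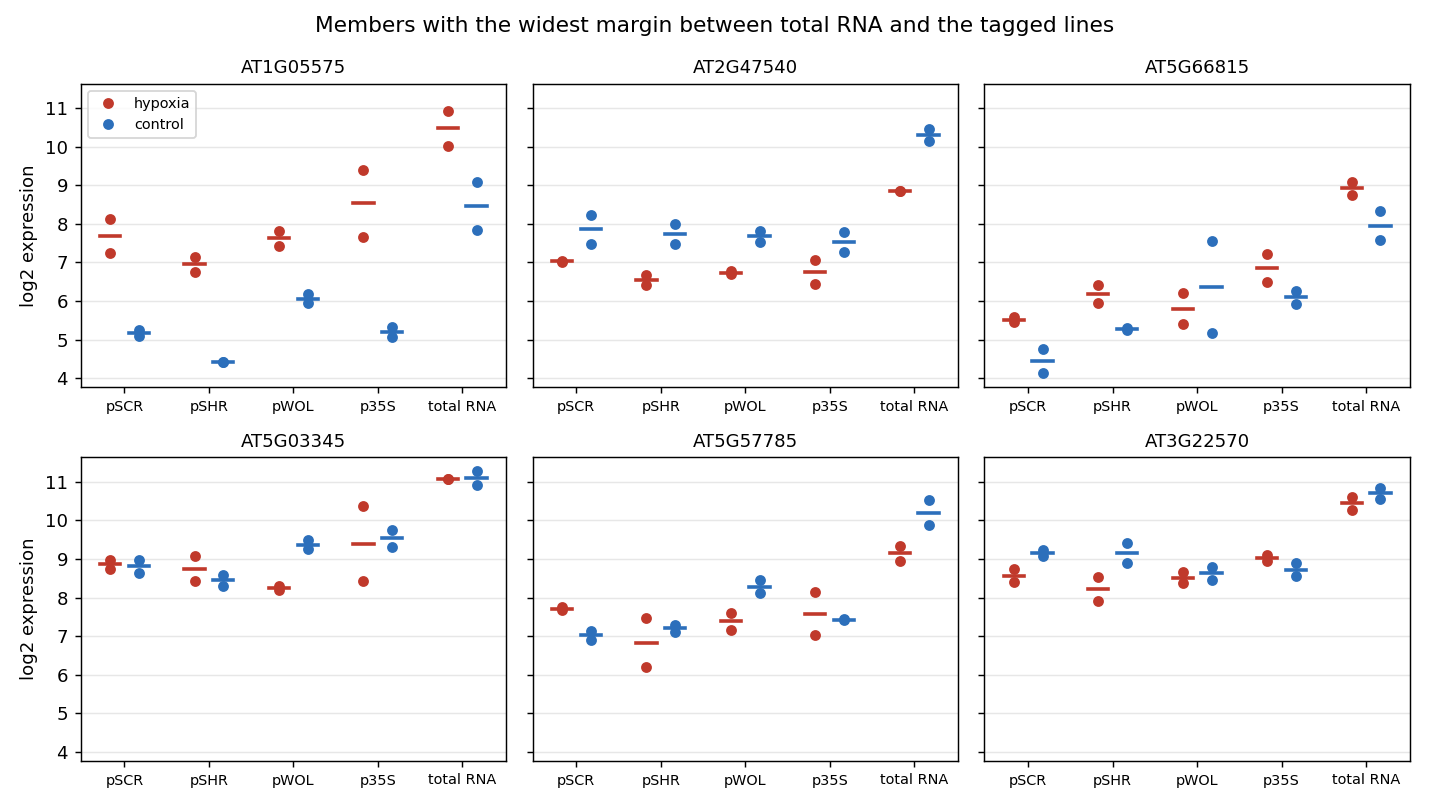
Log2 expression in every array (points, with the mean of 2 as a bar) of the 6 single-gene members with the widest lower margin, by RNA population, with hypoxia in red and control in blue. The 4 tagged lines have lower means than total RNA in each panel; AT1G05575 reads higher in hypoxia in all 5 populations and AT2G47540 reads lower.

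Probe sets that list several genes held the widest lower margins of all. One of them, 256438_s_at, was singled out after its values were seen and lists 5 genes, all under 1000 bases. Its polysomal arrays ran from 3.93 (median 5.00) to 6.32 in hypoxia, against 7.02 and 8.13 in total RNA, and from 3.86 (median 4.11) to 4.51 in control, against 7.91 and 8.43 in total RNA. Its margins were 1.97 in hypoxia and 3.90 in control, and its polysomal control values lie near the lowest on the array (3.35). The signal of such probe sets cannot be divided among their genes. The probe sets 253482_at and 263585_at, also singled out after the fact, list the same pair of genes, with spans of 698 and 893 bases. Their margins were 1.98 and 1.20 in hypoxia and 2.28 and 2.72 in control. For the 14 several-gene members, the longest listed gene with a known span had a median of 1258 bases, against 2098.5 for the 502 such probe sets with a span.

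Few members have a known role through the annotation. Besides DI21, the members that carry a gene symbol, picked for that reason after their values were seen, were CYTC-1, RALFL27, RALFL33, LSM6B, ZIP9 and EXPA8. For CYTC-1, the mitochondrial electron carrier cytochrome c, the polysomal arrays ran from 10.51 (median 11.27) to 11.81 in hypoxia and from 11.08 (median 11.67) to 12.26 in control. Total RNA read 12.92 and 13.40 in hypoxia and 12.44 and 13.50 in control, above every polysomal array of the same treatment.

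RALFL27 and RALFL33 encode small secreted signalling peptides of the RALF family. RALFL27 had polysomal arrays from 4.76 (median 6.25) to 7.15 in hypoxia and from 5.82 (median 6.19) to 6.82 in control, against 7.67 and 7.84 in hypoxia and 8.59 and 8.35 in control in total RNA. RALFL33 had polysomal arrays from 6.57 (median 8.75) to 9.59 in hypoxia and from 7.65 (median 8.06) to 8.45 in control, against 10.69 and 10.32 in hypoxia and 10.08 and 9.69 in control in total RNA. The low value of 6.57 was pSHR hypoxia replicate 2, whose partner read 8.88. Neither peptide gene had a polysomal array that reached total RNA.

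LSM6B, an Sm-like protein of RNA-binding complexes, had margins of 0.995 in hypoxia and 1.03 in control, and ZIP9, a metal transporter family member, 1.08 and 0.96. EXPA8, an expansin that loosens cell walls, had margins of 0.92 and 1.13. By locus, AT3G13610 (F6'H1, an enzyme of coumarin synthesis) had margins of 0.99 and 1.00, AT4G02620 (VHA-F, a subunit of the vacuolar proton pump) 0.94 and 0.905, and AT1G09330 (ECHIDNA, a protein of the trans-Golgi network) 0.90 and 0.85. The first 2 of these loci were picked after their values were seen.

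The cell type lists held 0 members, a number that for root hair genes follows from leaving out EXPA7 and EXPA18. Among root hair genes, 5 of 26 were measured by name, with a median lower margin of 0.76 (−0.04 to 0.95). EXPA7 and EXPA18, expansins of root hair cells, were past the threshold with lower margins of 0.82 and 0.95. The other measured root hair genes were not, with 0.76 for AT1G30870, 0.44 for AT4G26010 and −0.04 for XTH26. The list was written with earlier results known and the margins chose the members, so nothing is read from how many passed. The 4 measured root cap genes had lower margins between −0.76 and 0.34, the 3 cortex genes between −2.15 and −0.19, and the 3 stele genes between −2.22 and −0.97. GSO1 had −1.29. The 17 measured low-oxygen response genes had lower margins between −2.01 and −0.26. Several were dim in control total RNA, such as AT5G10040 (4.45) and AT4G10270 (5.02), which leaves little room for a control margin. Others were not, such as PDC2 (9.16). The highest hypoxia margin among them was 0.53, of AT4G10270. Of 34 measured expansin, xyloglucan and pectin genes 1 was a member (EXPA8), and 4 were past the threshold, XTH21, EXPA7 and EXPA18 included. The 29 genes with a defensin-type symbol, 24 with a cytochrome P450 symbol and 6 with a kinase symbol held no member, but members known by locus alone could not be classed this way.

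How the members responded to hypoxia was not fixed by the rule, which looks within a treatment. On the mean of the 4 lines, 8 hypoxia against 8 control arrays, 36 members (28.8%) were called by limma at an adjusted p below 0.05, against 20.5% of all probe sets. Lower calls were 25 (20.0%, against 10.8% of all) and higher calls 11 (8.8%, against 9.69%). The members were mostly bright, and no share was taken over probe sets of like level. The part of level in the shares called was not tested, here or in the comparisons below. The members' median difference was −0.16 log2 units and that of all probe sets −0.02. In 10 of the called members the 8 hypoxia and 8 control arrays did not overlap. The same count was not made over all probe sets, so nothing is read from it.

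AT1G19020, a locus without a symbol, had the highest rise of all members. Its polysomal arrays ran from 9.62 (median 10.27) to 10.96 in hypoxia and from 6.52 (median 7.22) to 8.55 in control, and its total RNA values were 11.37 and 12.22 in hypoxia and 8.72 and 9.94 in control. Neither pool overlapped between treatments. The polysomal mean rose by 2.81 ± 0.27 log2 units (limma, adjusted p = 8.21e-06). For AT1G05575, whose arrays are given above, the polysomal mean rose by 2.48 ± 0.26 (limma, adjusted p = 1.32e-05).

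AT1G67920 had polysomal arrays from 7.16 (median 7.78) to 8.55 in hypoxia and from 4.93 (median 5.41) to 5.94 in control, without overlap. It rose by 2.41 ± 0.21 (limma, adjusted p = 2.93e-06). AT2G37750 ran from 9.80 (median 10.52) to 11.90 in hypoxia and from 8.22 (median 9.20) to 9.92 in control, with a slight overlap, and rose by 1.47 ± 0.19 (limma, adjusted p = 0.000104). AT2G18690 rose by 1.11 ± 0.17 (adjusted p = 0.00038). AT3G22540 (0.71 ± 0.22, adjusted p = 0.0363) and AT5G62150 (0.54 ± 0.15, adjusted p = 0.0196) were the weakest named rises by limma, and the call on AT3G22540 was lost in 12 of 26 alternatives.

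Of the members that fell, the probe set 263376_at, singled out after its values were seen and without a listed gene, fell most. Its polysomal arrays ran from 4.86 (median 5.57) to 6.15 in hypoxia and from 6.75 (median 7.75) to 8.94 in control, and total RNA read 6.49 and 6.87 in hypoxia and 9.91 and 9.61 in control. No arrays overlapped in either pool, and the polysomal mean fell by 2.37 ± 0.17 log2 units (limma, adjusted p = 3.26e-07). AT4G33730 had polysomal arrays from 5.52 (median 5.83) to 6.84 in hypoxia and from 6.34 (median 7.19) to 8.14 in control, and total RNA read 7.68 and 7.36 in hypoxia and 10.07 and 9.22 in control. Of the 4 lines only p35S overlapped between the treatments, and the mean fell by 1.40 ± 0.20 (limma, adjusted p = 0.000214).

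AT2G03980 fell by 1.29 ± 0.26 (limma, adjusted p = 0.00305), with polysomal arrays from 6.26 (median 6.48) to 7.16 in hypoxia and from 6.50 (median 7.96) to 8.81 in control. The low control array was pSCR replicate 1, which lay inside the hypoxia range. EXPA8 fell by 0.95 ± 0.29 (adjusted p = 0.0305), a call lost in 10 of 26 alternatives, and AT2G47540 by 0.94 ± 0.14 (adjusted p = 0.000352). The other named falls, of AT1G57540, AT4G00585, AT4G30010, AT4G30320, AT2G34910 and AT3G12370, were between −0.76 and −0.54, with adjusted p from 0.00224 to 0.0301 by limma. The call on AT1G57540 was lost in 10 of 26 alternatives. Genes of several cell type lists, none of them a member, were called lower in the polysomal mean and none higher. Lower calls covered 4 of 5 root hair, 3 of 4 root cap, 2 of 3 cortex and 1 of 3 stele genes. Over all probe sets 10.8% were called lower and 9.69% higher. The 1 measured endodermis gene, GSO1, was not called. The part of these cell types in the members' falls was not tested.

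In total RNA itself 9 members were called, against 2.92% of all probe sets, with 3 higher (2.04% of all) and 6 lower (0.884%). All 9 were called the same way in the polysomal mean, which rests on other arrays, although those of p35S share lysates with total RNA. The rule requires a gap between the pools in both treatments, which favours members whose pools move together. How often all probe sets called in total RNA were called the same way in the polysomal mean was not counted. Nothing is therefore read from this overlap. AT1G19020 rose by 2.46 ± 0.55 (limma, adjusted p = 0.0253) and AT1G67920 by 1.81 ± 0.42 (adjusted p = 0.0337). AT4G33730 fell by 2.12 ± 0.40 (adjusted p = 0.00869), AT4G30320 by 1.74 ± 0.31 (adjusted p = 0.00553) and AT2G34910 by 1.26 ± 0.31 (adjusted p = 0.0438), the last call being lost in 11 of 26 alternatives. The count of 9 was 4 without total RNA control replicate 1, 5 without control replicate 2, 3 without hypoxia replicate 1 and 2 without hypoxia replicate 2.

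**Figure D5:**
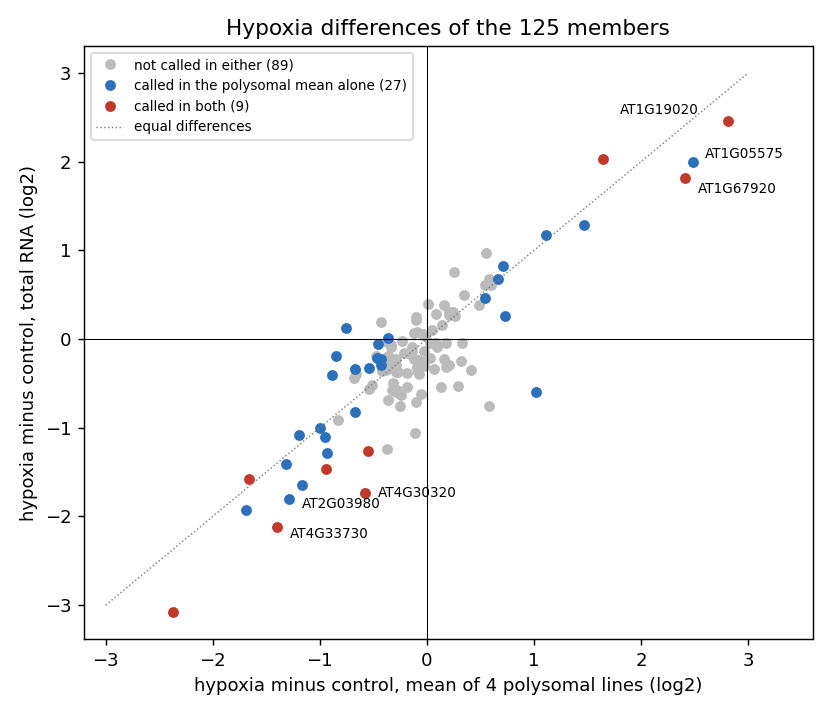
Hypoxia minus control of the 125 members, in log2 units, as the mean of the 4 polysomal lines (horizontal axis) and in total RNA (vertical axis), with the line of equal differences dotted. Members called in both (9) are red, those called in the polysomal mean alone (27) blue and the other 89 grey; AT1G19020 lies at 2.81 and 2.46 and AT4G33730 at −1.40 and −2.12.

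Among single lines, pWOL had the most called members, 22 against 8.52% of all probe sets, with 4 higher (4.18% of all) and 18 lower (4.34%). The median difference of the members in pWOL was −0.51 and 100 of 125 were below 0. That count was 3 without pWOL control replicate 1, 7 without control replicate 2 and 4 without either hypoxia replicate. AT1G57540 fell by 1.63 ± 0.45 in pWOL (limma, adjusted p = 0.0415, a call lost in 10 of 26 alternatives), where its arrays read 6.71 and 5.96 in hypoxia and 8.00 and 7.92 in control. AT4G30010 read 9.18 and 9.37 in hypoxia and 10.70 and 10.46 in control, and fell by 1.31 ± 0.26 (limma, adjusted p = 0.00738). Both sets of arrays were apart.

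In pSHR 15 members were called, against 4.56% of all probe sets, 3 higher (2.68% of all) and 12 lower (1.88%), with a median of −0.35. The count was 7 without pSHR control replicate 1 and 3 without pSHR hypoxia replicate 2. In pSCR 11 were called, against 5.96%, 8 higher (3.45%) and 3 lower (2.51%), with a median of 0.21, and the count was 5 without pSCR control replicate 1 and 3 without pSCR hypoxia replicate 2. That last array is the one with the low 25S reading. In p35S 7 were called, against 4.72%, 5 higher (2.8%) and 2 lower (1.92%), with a median of −0.04, and 4 without p35S control replicate 2 or hypoxia replicate 2. The differences between lines in these counts were not tested. AT1G19020 and AT1G67920 rose in all 5 populations, and 263376_at fell in all 5.

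The mean polysomal hypoxia difference minus that of total RNA gives how the gap between pools differed between the treatments. It is built from the group means that chose the members, whose gap the rule holds at 0.8 log2 units or more in both treatments, so it is given as a description. The members had a median of 0.01 log2 units and a range of −0.87 to 1.62. By limma 0 of the 125 were called and 4 had an unadjusted p below 0.05, beside a call rate of 0.0176% over the whole array (0.00879% higher, 0.00879% lower). Nothing is read from that count. AT1G05575 had 0.48 ± 0.57 and AT2G47540 0.52 ± 0.32.

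The lines were then compared with p35S over both treatments, 4 arrays against 4. The rule holds every line below total RNA and the same arrays chose the members, so both sides of each difference are capped. In pSCR 12 members were called against p35S (15.2% of all probe sets), 2 higher (6.76% of all) and 10 lower (8.42%), and the count was 5 without p35S control replicate 1 and 7 without p35S control replicate 2. In pSHR 10 were called (7.93% of all), 3 higher (4.08%) and 7 lower (3.84%). That count was 3 without p35S control replicate 1, and 6 without p35S control replicate 2, p35S hypoxia replicate 1, pSHR control replicate 1 or pSHR hypoxia replicate 2. In pWOL 11 were called (18.6% of all), 1 higher (9.25%) and 10 lower (9.35%). For pWOL it was 7 without p35S control replicate 1 and 19 without p35S hypoxia replicate 1, and 6 without pWOL control replicate 2, 7 without pWOL hypoxia replicate 1 and 5 without pWOL hypoxia replicate 2. The share called among members was below the background for pSCR and pWOL and close to it for pSHR.

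AT3G62450 was called lower than p35S in all 3 lines. It averaged 6.33 log2 units in pSCR, 7.04 in pSHR and 7.21 in pWOL, against 8.11 in p35S, and 9.43 in total RNA. The differences were −1.78 ± 0.30 for pSCR (limma, adjusted p = 0.00141), −1.08 ± 0.30 for pSHR (adjusted p = 0.0405) and −0.91 ± 0.30 for pWOL (adjusted p = 0.0472). The pSHR call was lost in 13 of 26 alternatives and the pWOL call in 17, and p35S control replicate 1, at 9.13, was above its partner at 7.91.

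AT2G14900 ran the other way, with 7.89 in pSCR and 7.47 in pSHR, against 6.36 in p35S. It was higher by 1.53 ± 0.26 in pSCR (limma, adjusted p = 0.00152) and by 1.10 ± 0.26 in pSHR (adjusted p = 0.0193). DI21 averaged 9.56 in pSCR and 9.71 in pSHR, against 8.55 in p35S, and was higher by 1.01 ± 0.29 and 1.16 ± 0.29 (limma, adjusted p = 0.0325 and 0.0269). RALFL27 was lower in pSHR, at 5.54 against 6.71 in p35S, a difference of −1.16 ± 0.22 (limma, adjusted p = 0.00581).

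Replicates of AT1G09330 lay close together. It read 10.13, 10.12, 9.87 and 10.03 in the pSCR arrays and 9.84, 9.82, 9.94 and 9.88 in the pWOL arrays, against 10.40, 10.59, 10.59 and 10.85 in p35S (hypoxia pair first). All pSCR and pWOL arrays were below all p35S arrays. The differences were −0.57 ± 0.11 for pSCR (limma, adjusted p = 0.00365) and −0.74 ± 0.11 for pWOL (adjusted p = 0.000624). AT5G66815 was lower in pSCR, at 4.98 against 6.48 in p35S (limma, adjusted p = 0.0235).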

How the data were processed

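The authors deposited 1 log2 expression value per probe set and array, made with RMA in the affy package, per the submitters' processing notes. Their versions were not given. RMA compresses low values, which understates margins of dim transcripts. The 64 control probe sets were left out. limma 3.58.1 in R 4.3.3 fitted 10 group means to all 20 arrays (10 residual degrees of freedom), with Benjamini-Hochberg adjustment over 22746 probe sets in each of 10 comparisons, and calls at an adjusted p below 0.05. Errors given with differences are that model's standard errors. The number of arrays limits the precision. Genes were named from the platform annotation and the RefSeq TAIR10.1 gene table, which gave spans; no coordinates are printed.

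Members, lists and tests were chosen with earlier results of these data known. Named genes are single-gene members: the 12 with the widest lower margin, up to 10 called per direction in the polysomal mean and 5 in other comparisons, those beside the threshold, list members and near neighbours. The calling was tested on simulated data for 22746 probe sets, where it found 85 of 100 differences of 1 log2 unit in the polysomal mean, 42 in pSCR hypoxia and 33 in polysomal minus total. Alternatives were other thresholds, normalizations, filters and moderation, the compared arrays alone, a replicate block and leaving out each array.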

Additional observations from a re-analysis of the deposited data

How the results depend on the processing

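The number of members was 254 at a margin of at least 0.6, 60 at 1 and 16 where every total RNA array had to exceed every polysomal array by 0.8 log2 units, and 91 to 151 when single arrays were left out. With the arrays of the compared groups alone, called members for hypoxia numbered 12 in total RNA, 3 in p35S, 2 in pSCR, 0 in pSHR, 32 in pWOL, 34 in the polysomal mean and 0 in polysomal minus total. Against p35S they numbered 8 for pSCR, 1 for pSHR and 16 for pWOL. The cause was not tested. Leaving out single arrays gave called members of 2 to 13 in total RNA, 4 to 8 in p35S, 3 to 12 in pSCR, 3 to 22 in pSHR, 3 to 25 in pWOL, 30 to 42 in the polysomal mean and 0 in polysomal minus total. Against p35S the ranges were 5 to 14 for pSCR, 3 to 10 for pSHR and 5 to 19 for pWOL. Correlations between the deviations of same-numbered replicates ran from −0.33 (p35S with total RNA in control) to 0.25. With 2 numbers only, they cannot settle whether the numbers pair samples. With the replicate block, 35 members were called in the polysomal mean, 10 in total RNA, 6 in p35S, 11 in pSCR, 16 in pSHR, 21 in pWOL, 0 in polysomal minus total, and 13, 10 and 11 for pSCR, pSHR and pWOL against p35S. Of 68 results on single genes, 16 held in all 26 alternatives, 5 were lost in at least 13 and 0 reversed. With 2 arrays in a group, differences near 1 log2 unit in a single line are often missed.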
